A study of Mus musculus with 63 samples.

Results

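The nuclear genes of oxidative phosphorylation encode most subunits of the mitochondrial respiratory chain and of ATP synthase. Members were taken by symbol (Nduf followed by a, b, c, s or v and a digit; Sdha to Sdhd; Uqcr; Cox4 to Cox8; and Atp5, without pseudogene symbols), which gave 84 of the 24990 rows of the expression tables. They comprised 37 genes of complex I, 4 of complex II, 8 of complex III, 18 of complex IV and 17 of complex V. The expression data came from 47 mouse RNA-seq libraries, and the accessibility data from 12 ATAC-seq libraries. The study asked what the loss of Chaserr, a long noncoding RNA transcribed just upstream of the chromatin remodeller gene Chd2, does to gene expression. Its Chaserr- allele lacks the promoter and the first exon, and its Chd2 m allele carries a frameshift in the third exon of Chd2. With WT Chd2, the Chaserr- allele was carried by lines from more than 1 founder that were used interchangeably. For the mutant of both genes, the promoter and first exon of Chaserr were deleted separately, in Chd2 m/m mice. Chaserr+/- animals were compared with WT as whole E9.5 embryos, whole E13.5 embryos, adult brains and mouse embryonic fibroblasts (mEFs), and mEFs were also made from embryos homozygous for 1 of the alleles (Chaserr-/- or Chd2 m/m) or for both (double mutant). The mEFs were primary cells from E13.5 embryos without head and liver, and each mutant mEF group had its own WT mEFs. For Chaserr+/- and Chaserr-/- mEFs the titles place the WT mEFs in the same pregnancy, and for the other RNA-seq sets they name crosses. For the double mutant the titles name a Chd2+/m cross, and for its WT mEFs a Chaserr+/- Chd2+/m cross. Each group had 3 libraries, except Chd2 m/m, with 2. The labels do not say for every group which libraries came from separate animals or cultures, so p-values measure the spread between these samples, which may in part be technical. In Neuro2a cells, a mouse neuroblastoma line, RNA immunoprecipitated with an antibody to CHD2 was set beside an IgG precipitate and the input, with 2 libraries each.

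Oxidative phosphorylation makes most of the ATP of respiring cells. Complex I (NADH dehydrogenase) and complex II (succinate dehydrogenase) pass electrons to ubiquinone, complex III (cytochrome bc1) hands them to cytochrome c, complex IV (cytochrome c oxidase) reduces oxygen, and complex V (ATP synthase) uses the proton gradient. Some core subunits are made inside mitochondria from mitochondrial DNA, but complex II is wholly nuclear. The nuclear genes are widely expressed, several have a second copy used in muscle, lung or testis, and NRF1, GABP (an ETS factor), YY1 and ERR proteins are known activators of many of them. Brain and heart depend strongly on this pathway.

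The promoters of the members show these motifs at different rates. A RefSeq promoter (GRCm38.p6, 250 bases before to 50 bases after the start) was found for 68 of the 84 members. The NRF1 motif (GCGC, any base, TGCGC) stood on either strand in 17 of the 68 (25%) against 5.19% of 27025 genes, and CCGGAAG, the ETS motif, in 17 (25%) against 9.93%. AAGATGGCG, the YY1 motif, was found in 7 (10.3%) against 1.64%, and TCAAGGTCA, the ERR motif, in Atp5g3 and Sdhd alone (2.94% against 0.466%). None of these motifs was present in 33 members (48.5%), against 84.5% of all genes, and TATAAA was present in 8 members (11.8%) against 15.7%. The median member promoter held 57.3% G or C and 19 CpG, against 52.7% and 7 in all 32851 promoters, so the CG-rich motifs are compared here with less CG-rich windows. Matches of different motifs overlapped in 0 of these promoters.

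The promoters below belong to members that later paragraphs describe or that hold more than 1 motif, and capitals mark the motifs. Ndufs6 (chr13:73328433-73328732, minus strand), which encodes an accessory subunit of complex I, holds the NRF1 motif starting 16 bases before the start and the YY1 motif 33 bases after it. Sdhd (chr9:50603800-50604099, minus strand), a membrane anchor of complex II, holds the NRF1, ETS and ERR motifs. Atp5h (chr11:115419870-115420169, minus strand) and Atp5j (chr16:84834927-84835226, minus strand), both of the peripheral stalk of ATP synthase, hold the NRF1 and ETS motifs and the YY1 and ETS motifs. Ndufb8 (chr19:44555393-44555692, minus strand), of complex I, and Atp5d (chr10:80142025-80142324, plus strand), the delta subunit of ATP synthase, hold none of these letters. All are in GRCm38.p6 and are printed 5′ to 3′ on the strand of the gene.
Ndufs6: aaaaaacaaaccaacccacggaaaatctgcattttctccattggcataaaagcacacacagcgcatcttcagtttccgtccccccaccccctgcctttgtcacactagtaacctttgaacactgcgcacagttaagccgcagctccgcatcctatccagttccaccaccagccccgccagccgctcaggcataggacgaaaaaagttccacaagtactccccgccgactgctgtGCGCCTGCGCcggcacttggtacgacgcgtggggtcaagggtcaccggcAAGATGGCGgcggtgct
Sdhd: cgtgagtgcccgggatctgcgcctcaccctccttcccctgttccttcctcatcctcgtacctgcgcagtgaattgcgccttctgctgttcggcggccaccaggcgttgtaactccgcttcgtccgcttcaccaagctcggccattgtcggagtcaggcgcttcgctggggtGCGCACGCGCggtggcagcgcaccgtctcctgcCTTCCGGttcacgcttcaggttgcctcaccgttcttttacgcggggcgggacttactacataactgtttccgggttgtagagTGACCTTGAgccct
Atp5h: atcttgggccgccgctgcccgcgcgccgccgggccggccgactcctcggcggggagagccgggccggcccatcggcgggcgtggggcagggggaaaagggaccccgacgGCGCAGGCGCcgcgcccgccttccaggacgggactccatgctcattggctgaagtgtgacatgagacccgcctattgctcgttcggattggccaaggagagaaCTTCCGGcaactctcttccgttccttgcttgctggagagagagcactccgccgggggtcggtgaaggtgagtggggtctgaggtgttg
Atp5j: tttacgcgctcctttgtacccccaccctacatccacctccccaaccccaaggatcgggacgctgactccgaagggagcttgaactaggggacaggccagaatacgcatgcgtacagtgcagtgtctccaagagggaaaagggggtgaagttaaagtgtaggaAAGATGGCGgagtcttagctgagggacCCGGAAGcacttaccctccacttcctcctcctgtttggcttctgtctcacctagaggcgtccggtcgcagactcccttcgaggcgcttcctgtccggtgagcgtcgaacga
Ndufb8: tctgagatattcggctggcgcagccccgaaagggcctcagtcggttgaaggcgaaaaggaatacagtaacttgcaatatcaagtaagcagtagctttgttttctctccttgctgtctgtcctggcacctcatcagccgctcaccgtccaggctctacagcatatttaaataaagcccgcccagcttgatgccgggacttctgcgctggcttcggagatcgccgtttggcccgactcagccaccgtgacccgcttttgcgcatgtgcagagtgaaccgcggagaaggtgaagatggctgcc
Atp5d: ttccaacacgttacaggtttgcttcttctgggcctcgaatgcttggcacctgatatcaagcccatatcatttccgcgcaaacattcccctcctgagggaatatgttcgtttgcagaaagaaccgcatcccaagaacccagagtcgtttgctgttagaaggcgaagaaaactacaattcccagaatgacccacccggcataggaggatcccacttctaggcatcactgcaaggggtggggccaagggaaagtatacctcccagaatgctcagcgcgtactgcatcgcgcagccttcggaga

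Levels are given as TPM, a share of all transcripts that is scaled by transcript length, which can be compared between genes. Library totals ran from 7621335 to 33192002 expected counts. Embryos and replicate 3 of both brain groups were made with the TruSeq kit, the other brains and all mEFs with the SENSE kit, and RIP with RiboCop. Chd2 CPM (counts scaled to library size by TMM) averaged 88.0 in Chaserr-/- against 32.2 in their WT mEFs, 139.7 against 38.0 in the double mutant and 47.1 against 29.7 in Chd2 m/m. These are mRNA values. The paper reports more CHD2 protein in Chaserr-/- mEFs, but strongly reduced protein from the m allele. In tissues of the double mutant it found no more CHD2 protein than in WT. Chaserr was listed at 0 TPM in the 3 Chaserr-/- libraries and at 8.63 to 13.84 in their WT. Neuronal and oligodendrocyte markers were high in brain, where the oligodendrocyte list summed to 7015 to 12144 TPM in WT. Among E9.5 embryos, Chaserr+/- replicate 3 stood apart, with 48.8 TPM summed over cardiac muscle markers against 892.3 and 1331 in the other Chaserr+/- libraries and 1044 to 1369 in WT.

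In WT tissues the members were abundant and were highest in brain. Together they held 2.51% to 2.57% of all TPM in E9.5 embryos, 3.09% to 3.22% in E13.5 embryos and 5.45% to 5.83% in brain, and 2.84% to 3.48% across the WT mEFs of the 4 sets. No library of one of the first 3 groups overlapped another of these groups. In tissue samples, more cells of a type and more RNA per cell cannot be told apart. Complex V summed to the most TPM and complex II to the least in every WT group. Complex V held 10329 ± 247.0 TPM (SD, n = 3) at E9.5, 12785 ± 289.3 at E13.5 and 18528 ± 626.5 in brain. Complex I held 6718 ± 23.0, 8681 ± 263.4 and 17432 ± 766.1 TPM, so its share of the members grew while that of complex V went from 40.7% to 32.7% between E9.5 and brain. Complex IV went from 5134 ± 69.8 to 6380 ± 266.7 and 14723 ± 392.7 TPM, and complex III from 2430 ± 30.8 to 3034 ± 89.8 and 5128 ± 508.6.

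**Figure D1:**
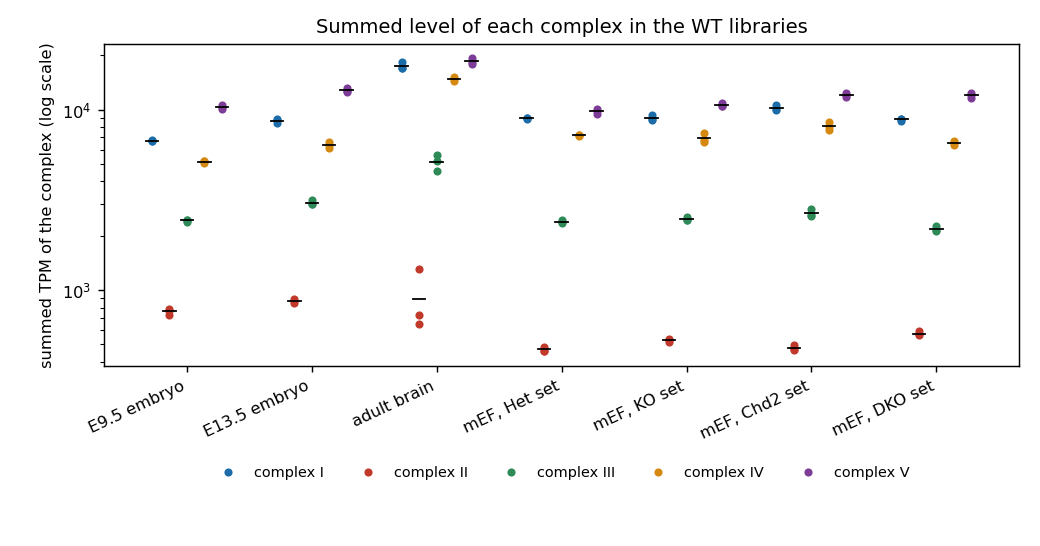
Summed TPM of each complex (y axis, log scale) in every WT library, by tissue or mEF set on the x axis; points are libraries and bars their means. Complexes I, III, IV and V were higher in all 3 brain libraries than in all embryos, and complex II was split between 651.3 and 1303 TPM within brain.

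Unlike the other complexes, complex II was not higher in all 3 brains than in embryos, and its level in brain depended on the library. Its 4 genes summed to 762.9 TPM at E9.5 and 871.0 at E13.5, and to 651.3, 729.4 and 1303 in the 3 WT brains. The last of these is the TruSeq library, made with the kit of the embryos. The SENSE brains lay below all E13.5 embryos and the TruSeq brain above them. Sdhb, the iron-sulphur subunit, was listed at 304.5, 273.9 and 294.1 TPM at E13.5 and at 193.5, 203.2 and 418.1 in brain. The same split recurred among other members in both genotypes: of 78 members with at least 10 TPM in these libraries, 19 were at least 1.5 times higher in the TruSeq brain than the mean of the SENSE brains in both WT and Chaserr+/-, and 7 at least 1.5 times lower. Atp5mpl had the highest WT ratio, 6.14, and Ndufs5 the lowest, 0.385. The kit and the replicate cannot be told apart in brain.

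By mean TPM, the most abundant member of some complexes changed with the tissue. In complex V it was Atp5b, the catalytic beta subunit, in embryos (1393 TPM at E9.5 and 1249 at E13.5, where it overlapped Atp5md) and Atp5k, the e subunit, in brain. Atp5k was listed at 3633, 3608 and 1657 TPM in the 3 brains, and overlapped Atp5md there too. In the TruSeq brain, made with the kit of the embryos, Atp5md (2526 TPM) and Atp5b (1756 TPM) both lay above Atp5k. The kit and the tissue cannot be told apart for the lead of Atp5k. In complex IV, Cox7c led at E9.5 with 691.7 TPM, Cox4i1 at E13.5 with 902.2, although it overlapped Cox7c, and Cox8a in brain with 2608, above Cox6a1 at 2194 in every library. Ndufa4 led complex I in both embryo stages and brain, with 720.2, 848.8 and 1772 TPM. Its protein is now usually counted with complex IV, but the symbol places it in complex I here. Uqcrh, the hinge protein, led complex III with 617.8, 890.2 and 1353 TPM. Of the 84 members, 72, 74 and 75 averaged at least 100 TPM in E9.5, E13.5 and brain.

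One subunit per complex shows the range of behaviours. Ndufb8 (mm9 chr19:44623062-44629930) was listed at 310.2, 323.3 and 338.2 TPM at E9.5, 480.1, 444.7 and 473.3 at E13.5, and 741.0, 837.3 and 958.5 in brain. Cox4i1 (mm9 chr8:123192190-123198109) was listed at 606.3, 597.1 and 623.3 at E9.5, 979.5, 843.8 and 883.3 at E13.5, and 1889, 2043 and 2358 in brain. The libraries of these 2 genes rose from stage to stage with no overlap. Uqcrc2, a core protein of complex III, stood at 209.8 to 219.8 at E9.5 and 212.0 to 233.7 at E13.5, which overlap, and at 186.9, 187.0 and 362.4 in brain. Atp5a1, the catalytic alpha subunit, stood at 755.1 to 762.8 and 777.3 to 817.2 in embryos, and at 512.9, 603.9 and 1024 in brain. As with Sdhb, the SENSE brains lay below the embryos and the TruSeq brain above them.

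Tissue-specific copies were far below their common counterparts in every WT group. Cox6a2, the heart and muscle form, was listed at 9.43 to 13.2 TPM at E9.5, 19.1 to 25.7 at E13.5 and 15.9 to 20.8 in brain, against 388.4 to 424.6, 525.4 to 651.3 and 1747 to 2428 for Cox6a1. Cox7a1, also of heart and muscle, was at 9.99 to 14.98 at E9.5 and 7.26 to 19.7 in brain, while Cox7a2 was at 307.8 to 351.2 and 637.5 to 812.4. Cox8b was listed at 0 to 0.35 TPM at E9.5 and at 5.43 to 9.26 at E13.5. The lung form Cox4i2 was at 5.74 to 11.5 in these tissues, and the testis form Cox6b2 was at 11.98 to 15.6 at E9.5 and at 49.4 to 71.4 in WT mEFs of the Het set (the mEFs prepared beside Chaserr+/-). Cox8c was listed at 0 throughout, and Cox7b2 reached 1.52 TPM in 1 brain library. The 3 genes of the c ring of ATP synthase, which encode the same mature protein, all held over 290 TPM in embryos and brain. Atp5g3 was highest (742.9 to 837.0 at E9.5, 1109 to 1125 in brain), Atp5g1 rose from 319.3 to 333.5 to 549.5 to 626.8, and Atp5g2 was lower in brain (487.1 to 553.2) than at E9.5 (667.0 to 702.8). Ndufa4l2, a hypoxia-responsive relative of Ndufa4, was at 0.48 to 0.91 TPM in the Het-set WT mEFs and at 13.6 to 22.9 in the WT mEFs of the KO set (prepared beside Chaserr-/-).

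**Figure D2:**
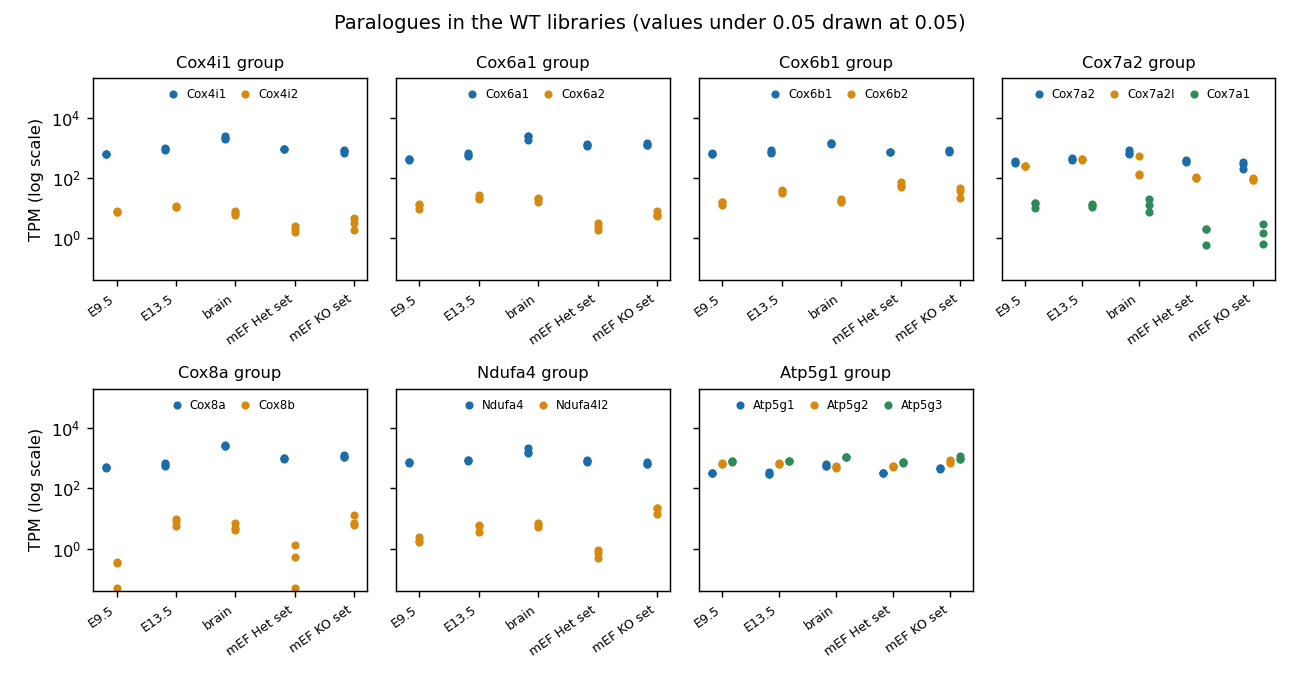
TPM (y axis, log scale, values under 0.05 drawn at 0.05) of paralogues in single WT libraries, by tissue or mEF set on the x axis. The common form led by more than 10 times in the Cox4, Cox6a, Cox8 and Ndufa4 groups, and the 3 Atp5g genes lay close together.

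Stage and tissue were compared with edgeR's quasi-likelihood test on counts, adjusted by Benjamini and Hochberg over all genes tested, with calls made below an adjusted p of 0.05. These fold changes are on the log2 scale. From E9.5 to E13.5 the members moved in both directions. Of 82 tested, 37 were called higher and 21 lower, where 80.4% of all genes were called (42.1% higher and 38.3% lower), and their median change was 0.09 against 0.06 for all genes. Complex I had 17 higher and 6 lower, complex II 2 and 2, complex III 5 and 3, complex IV 7 and 3, and complex V 6 and 7. Cox6b2 rose from 3.57, 3.36 and 2.65 CPM to 6.89, 7.18 and 5.69 (log2 1.05, SE 0.16, adjusted p = 0.000202), and Ndufa4l2 rose by 1.15 (SE 0.26, adjusted p = 0.00251). Cox8b passed too (adjusted p = 6.73e-05), but its E9.5 counts are too few for a fold. Sdha, the flavoprotein of complex II, fell from 290.0, 263.6 and 272.8 CPM to 197.2, 194.8 and 195.4 (log2 -0.49, SE 0.04, adjusted p = 5.09e-06). Sdhd fell by 0.47 (SE 0.04), and Uqcrb, of complex III, fell by 0.51 (SE 0.06). In all 3 the groups did not overlap.

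Genes around the complexes moved differently over the same interval. Of 43 assembly factors 9 were higher and 25 lower, of 17 genes of the tricarboxylic acid cycle 1 and 13, of 77 mitochondrial ribosomal protein genes 7 and 56, and of 16 glycolytic genes 5 and 10. Their medians were -0.31, -0.49, -0.39 and -1.38. Examples, picked like the others from these lists after their values were seen, are Pdha1 of pyruvate dehydrogenase (-0.99), Ndufaf4, an assembly factor of complex I (-1.34), and Ldha, lactate dehydrogenase A (-2.32). Of 12 regulators of mitochondrial biogenesis 9 fell, among them Gabpa (-0.97) and Nrf1 (-0.68), and 3 rose, among them Ppargc1a (0.36) and Esrra (0.36). The members alone among these lists had more genes higher than lower, a difference between lists that was not tested.

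Most members were higher in brain than at E13.5. Of 82 tested, 57 were called higher and 1 lower, where 71.1% of all genes were called (35.2% higher and 35.9% lower), and the median change was 0.87 against -0.03 for all genes. In complex I 31 of 37 rose and none fell, in complex II 1 of 4 rose, in complex III 6 of 8, in complex IV 9 of the 16 tested, and in complex V 10 of 17. Cox8a rose from 128.7, 101.4 and 108.5 CPM to 622.4, 574.2 and 491.3 (log2 2.32, SE 0.15, adjusted p = 1.48e-05), in SENSE and TruSeq libraries alike. Cox5b, of complex IV, rose by 2.43 (SE 0.37) but stood at 511.5, 563.4 and 204.6 CPM in the 3 brains. Ndufs5 rose by 2.92 (SE 0.50), to 182.5, 225.1 and 65.3 CPM, and its reads may be shared with a pseudogene, so its size is uncertain. Cox6b2 was the member that fell, from 6.79, 6.99 and 5.60 to 3.06, 3.97 and 2.79 CPM (log2 -0.99, SE 0.22, adjusted p = 0.00481). With TruSeq libraries alone, 75 members were higher and 2 lower, the single TruSeq brain being taken to vary like the embryos (13233 of 16852 genes called), and without it 57 were higher and 13 lower (13855 of 16557 genes). Of 80 members at 10 TPM or more in every E13.5 library, 53 lay above all E13.5 embryos in all 3 brains, 76 in the TruSeq brain, and 19 lay below all E13.5 embryos in both SENSE brains. These counts describe the members alone, with no share of all genes beside them, and the TruSeq brain is 1 library.

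**Figure D3:**
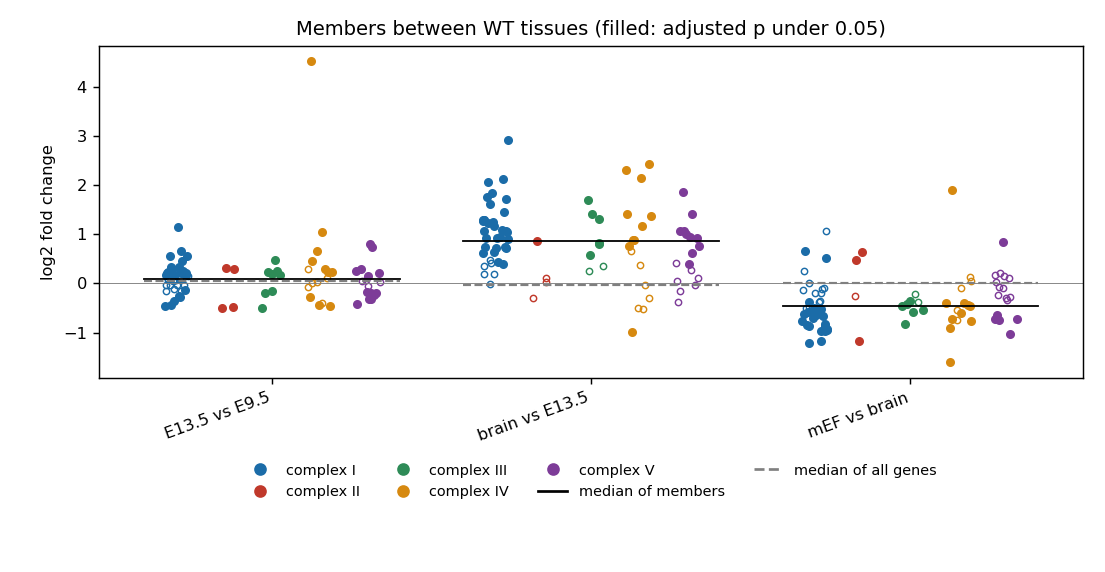
Log2 fold change of each member (y axis) between WT tissues (x axis), coloured by complex; filled points passed an adjusted p of 0.05, black lines are medians of the members and dashed lines medians of all genes. Members lay mostly above 0 from E13.5 to brain (median 0.87) and below 0 from brain to mEFs (median -0.46).

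The lists around the complexes also had more genes higher than lower in brain, except the regulators. Assembly factors had 22 higher and 3 lower of 43 (median 0.41), the tricarboxylic acid cycle 10 and 1 of 17 (0.60), glycolysis 11 and 2 of 16 (1.298) and mitochondrial ribosomal proteins 20 and 9 of 77 (0.11). Idh3a, of isocitrate dehydrogenase, rose by 2.40 and Cox17, a copper chaperone for complex IV, by 2.38. Among 12 regulators, 3 rose and 6 fell. Ppargc1a, a coactivator of mitochondrial genes, rose by 3.10, from 2.40 to 2.44 TPM at E13.5 to 16.2 to 23.3 in brain, while Nrf1 changed by -1.95, Gabpa by -1.51 and Tfam by -1.05. Of 3 tested genes of the pathway that the symbol rule misses, Cyc1 and Ndufab1 rose and Cycs did not pass (0.32, adjusted p = 0.625).

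WT mEFs of the Het and KO sets were lower than brain, both from the SENSE kit. Of 81 members tested, 6 were called higher and 44 lower, where 73.3% of all genes were called (35.7% higher and 37.6% lower), and the median change was -0.46 against 0.01. Ndufb2, of complex I, went from 43.5 and 55.9 CPM in brain to 25.2, 20.4 and 22.3 in the Het set and 20.1, 19.9 and 20.1 in the KO set (log2 -1.22, SE 0.13, adjusted p = 3.86e-05). Cox6a2 (-1.61, SE 0.49, adjusted p = 0.0149) and Ndufc1 (-1.17, SE 0.28, adjusted p = 0.00476) were the others of the largest falls. The largest rises were those of Cox6b2 (1.90, SE 0.46), Atp5g2 (0.84, SE 0.24) and Ndufa7 (0.67, SE 0.14), the last from 102.2 and 107.2 CPM to between 141.0 and 193.4 in all 6 mEF libraries. With the WT mEFs of all 4 sets, 5 members were higher and 24 lower (10824 of 15901 genes called). Mitochondrial ribosomal proteins went the other way, with 41 higher and 4 lower of 77 (median 0.44), and Ppargc1a fell by 4.05.

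No member passed in any mutant by edgeR. Of all genes, edgeR called 0% in Chaserr+/- at E9.5, 0.0314% at E13.5, 0% in brain and 0.173% in mEFs, and 0.118% in Chaserr-/-, 0.0145% in Chd2 m/m and 0.0924% in double mutant mEFs. In Chaserr+/- tissues the members at an unadjusted p under 0.05 were 1 of 81 at E9.5 (3.12% of all genes), 2 of 82 at E13.5 (6.34%), 1 of 81 in brain (2.47%) and 2 of 77 in mEFs (8.36%). In Chd2 m/m mEFs they were 6 of 78 (4.51%) and in double mutant mEFs 0 of 80 (9.89%). DESeq2 called 0 members in these 6 comparisons as well, with 0.0345% of all genes at E9.5, 0.132% at E13.5, 0.00671% in brain, 0.745% in Chaserr+/- mEFs, 0.0798% in Chd2 m/m and 1.65% in the double mutant. The medians of the members lay between -0.02 and 0.04, with median standard errors from 0.05 at E9.5 to 0.25 in brain, so that smaller changes were detectable in embryos than in brain. In simulated counts with 200 genes changed by 1 in log2 units, 74.5% of those genes were called at E9.5 and 0% in brain.

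The members with the smallest unadjusted p in Chaserr+/- animals differed by tissue. At E9.5, Ndufc2, of complex I, stood at 61.2, 64.1 and 59.5 CPM in WT and 68.3, 72.4 and 63.5 in Chaserr+/- (log2 0.14, SE 0.06). Cox6a2 had the lowest fold change there (-0.96, SE 0.78, adjusted p = 1 by edgeR), with 10.4, 6.77 and 0.14 TPM in Chaserr+/-, the last being the library with few cardiac muscle transcripts; whether these go together was not tested. At E13.5, Ndufb6 stood at 49.7, 46.9 and 43.7 CPM in WT and 52.8, 51.7 and 52.4 in Chaserr+/- (log2 0.16, SE 0.06, edgeR adjusted p = 0.732), and Cox7a1 at 1.51, 1.17 and 1.39 against 1.09, 0.912 and 0.665 (log2 -0.60, SE 0.24). These groups did not overlap. The erythroid markers summed to 4540 to 21529 TPM in Chaserr+/- and 5203 to 8629 in WT at E13.5, and the hepatocyte markers to 444.2 to 4702 and 344.4 to 1359, and their part in the members' values was not tested. In brain, Ndufc1 stood at 61.0, 63.8 and 60.3 CPM in WT and 39.8, 40.6 and 47.5 in Chaserr+/- (log2 -0.53, SE 0.16, edgeR adjusted p = 1 after rounding), without overlap, while Ndufb6 overlapped (-0.42, SE 0.21). Oligodendrocyte markers summed to 4512 to 7142 TPM in these Chaserr+/- brains against 7015 to 12144 in WT, and their part in the members' values was not tested. In mEFs the largest evidence was for Ndufs8 (130.9, 122.9 and 132.9 against 110.6, 111.4 and 113.9 CPM, log2 -0.20, SE 0.07) and Ndufv1 (-0.23, SE 0.09), both core subunits of complex I, with no overlap between groups. In these mEFs 12 of 14 skeletal muscle markers were higher at an unadjusted p under 0.05, and their part in the members' values was not tested. The remaining members picked by smallest p had log2 changes of 0.09 (Ndufb5), -0.06 (Atp5g1) and -0.40 (Ndufa4l2) at E9.5, 0.10 (Ndufc2) and -0.15 (Ndufb11) at E13.5, 0.24 (Ndufa2) and 0.23 (Cox4i1) in brain, and 0.23 (Cox6a1) and 0.12 (Ndufb11) in mEFs.

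Chaserr-/- mEFs spread the members in both directions without a call. Of 80 tested, 19 were higher and 16 lower at an unadjusted p under 0.05, against 33.9% of all genes, and 22 lay above and 18 below all WT libraries, against 21.8% and 21.4% of all genes. DESeq2 called 16 higher and 9 lower, against 11.2% and 8.25% of all genes. The median was 0.01, against -0.02 for all genes, and 21 members differed by at least 0.5 in log2 units. The unadjusted passes were spread over complex I (8 higher and 7 lower), III (2 and 2), IV (4 and 3) and V (5 and 4), with none in complex II. Of the lists around them, assembly factors had 15 higher and 2 lower of 43 and glycolysis 1 and 2 of 16 at that level.

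The 4 members with the smallest p by direction all belong to complex V. Atp5h stood at 175.0, 139.7 and 145.5 CPM in WT and 319.9, 215.0 and 264.2 in Chaserr-/- (log2 0.80, SE 0.16, unadjusted p = 0.000607 and adjusted p = 0.0522 by edgeR). Atp5md, the DAPIT subunit, stood at 108.1, 80.7 and 104.0 against 299.2, 134.1 and 193.2 (1.10, SE 0.25). Atp5d stood at 222.7, 266.3 and 245.9 against 94.7, 162.7 and 142.9 (-0.88, SE 0.19), and Atp5g2 at 235.8, 281.3 and 276.0 against 137.6, 207.1 and 161.0 (-0.65, SE 0.16). In each of the 4, Chaserr-/- replicate 1 lay farthest from WT and replicate 2 nearest. Without replicate 2 of Chaserr-/- 27 members were called, when 2827 of 13770 genes were, and without replicate 1, 9, when 1015 of 13842 genes were. Skeletal muscle markers summed to 793.3 to 896.1 TPM in Chaserr-/- against 1155 to 1997 in WT, and macrophage markers to 1040 to 1095 against 1351 to 1608; their part in the members' changes was not tested.

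The fold change of a member in Chaserr-/- mEFs went with the base composition of its transcripts. Across the 80 members Pearson's r with GC content was -0.71 and Spearman's rho -0.74, a description over genes measured in the same 6 libraries, which are not independent replicates, while r with log2 length was -0.01. In double mutant mEFs r with GC content was -0.23, in Chd2 m/m mEFs it was 0.38 (rho 0.45), and in the Chaserr+/- comparisons it was -0.17 at E9.5, -0.19 at E13.5, 0.38 in brain and -0.12 in mEFs. Atp5md and Uqcrb, at 42.2% GC, lay at the upper end (1.10 and 1.19), and Atp5d, at 60.7%, near the lower end. After a correction for length and GC content within each library, 0 members were called, the median became 0.13, Atp5h kept 0.84 and Atp5md 0.67, and Atp5d and Atp5g2 came to -0.35 and -0.33.

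**Figure D4:**
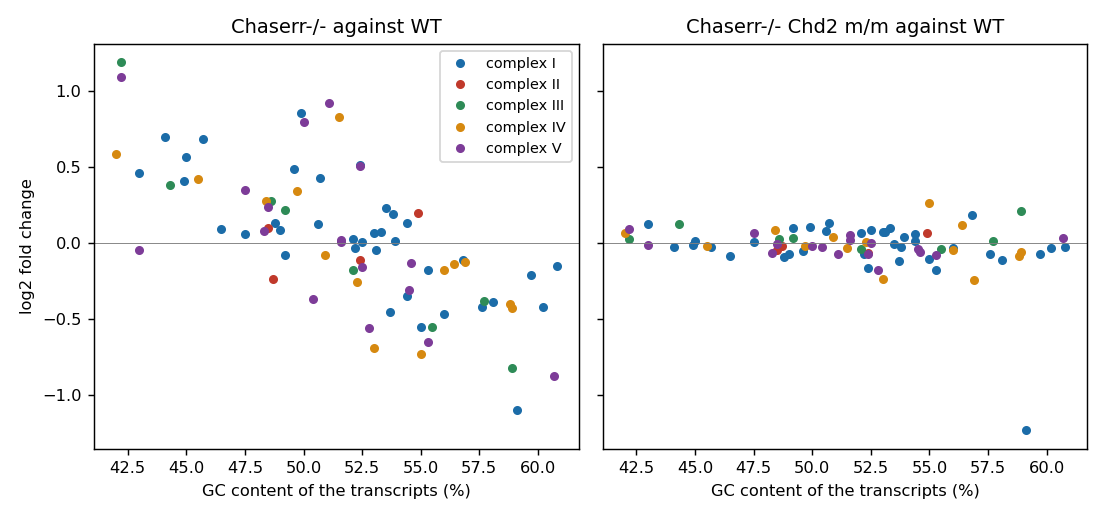
Log2 fold change of each member (y axis) against the GC content of its transcripts in percent (x axis) in Chaserr-/- mEFs (left) and double mutant mEFs (right), each against its own WT, coloured by complex. Changes fell with GC content on the left (r = -0.71) and mostly stayed near 0 on the right. Ndufa4l2 was the lowest point in both, and averaged 19.49 TPM in the WT mEFs on the left and 3.12 on the right.

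WT mEFs of the 4 sets, which are labelled with different pregnancies or crosses, differed among themselves in the members' levels. Over the WT means of the 4 sets, 77 members had at least 10 TPM, the median ratio of the highest to the lowest set was 1.58, and 17 members differed by at least 2 times. Atp5j had the highest ratio, 4.00, with 163.0, 148.5 and 191.1 TPM in the WT libraries of the KO set, 639.8, 285.9 and 331.6 in Chaserr-/-, and 669.8, 735.8 and 605.4 in the WT libraries of the double mutant set. Atp5d stood at 80.1, 115.0 and 94.0 CPM in the WT mEFs of the double mutant set, below the WT mEFs of the KO set. In Chd2 m/m and double mutant mEFs, fold changes stayed close to 0: Atp5h was at -0.13 (SE 0.07) and -0.02 (SE 0.12), and Uqcrb at -0.08 (SE 0.08) and 0.03 (SE 0.11).

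The changes in Chaserr-/- and in the double mutant, each against its own WT, were compared in one fit. Of 80 members 0 passed for the difference, where 0.112% of all genes did, and 12 were higher and 6 lower at an unadjusted p under 0.05 (26.2% of all genes). The smallest adjusted p were those of Atp5h (0.82, SE 0.21, adjusted p = 0.0781), Ndufs1 (0.72, SE 0.21, adjusted p = 0.081), Atp5d (-0.90, SE 0.27, adjusted p = 0.0849) and Uqcr11 (-1.02, SE 0.33, adjusted p = 0.0925), by edgeR. DESeq2 called 10 members (10.6% of all genes), and 11 were called by edgeR without Chaserr-/- replicate 2 (1764 of 14479 genes). The 2 sets of WT mEFs differ by cross, and the Chaserr deletions of the 2 mutants were made separately. Neither can be told apart from the genotype in this comparison. The smallest p in Chd2 m/m were those of Ndufs7 (75.8, 81.0 and 74.6 CPM in WT, 94.2 and 82.8 in the mutant, log2 0.20, SE 0.07) and Ndufb6 (64.1, 72.7 and 69.7 against 62.6 and 57.1, log2 -0.20, SE 0.08), both with an adjusted p of 0.937 by edgeR, beside Uqcr10 (0.27, SE 0.10) and Atp5h. In the double mutant Ndufv1 came closest, at 24.4, 27.7 and 28.2 against 31.2, 30.8 and 29.2 CPM (log2 0.19, SE 0.11, edgeR adjusted p = 0.66), beside Uqcr11 (0.21), Atp5g1 (-0.18) and Ndufa4l2 (-1.23, SE 0.78).

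In the RNA immunoprecipitation the members were lower in the CHD2 libraries than in the input. They held 3.00% of all TPM in both CHD2 libraries, 3.24% and 3.38% in the input and 4.30% and 5.02% in IgG. Of 83 tested, 25 were called lower and 0 higher in CHD2 than in the input, where 6.16% of all genes were called lower and 8.91% higher, and the median was -0.74 against 0.32 for all genes. DESeq2 called 38 lower and 0 higher (12.3% and 11.3% of all genes, 15.1% being called in either direction by edgeR). Complex I had 10 lower, complex II 2, complex III 3, complex IV 3 and complex V 7. Ndufb6 stood at 53.9 and 36.8 CPM in the input, 9.18 and 12.6 in CHD2 and 13.8 and 17.9 in IgG (CHD2 against input log2 -2.06, SE 0.36, adjusted p = 0.0123). Uqcrb stood at 45.3 and 41.3, 10.8 and 12.9, and 11.0 and 22.1 (-1.87, SE 0.40), and Atp5md at 60.7 and 43.1, 13.0 and 16.4, and 38.0 and 36.2 (-1.82, SE 0.32). Both precipitates lay below both input libraries for all 3 genes, and for Atp5md IgG against the input did not pass (-0.48, SE 0.31, adjusted p = 0.254 by edgeR). Chd2 itself averaged 80.0 CPM in CHD2, 19.7 in IgG and 23.7 in the input.

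IgG differed from the input in both directions. There 8 members were higher and 4 lower of 83 (14.3% and 10.3% of all genes, 24.6% in either direction), with a median of 0.08, and DESeq2 called 16 higher and 13 lower (17.9% and 17.8%). With no filter on low counts the balance turned, with 8 members higher and 14 lower (5235 of 18163 genes called in either direction). Ndufb3, of complex I, rose from 5.26 and 3.42 CPM in the input to 26.3 and 16.4 in IgG, with 12.2 and 9.96 in CHD2 (IgG against input log2 2.31, SE 0.42, adjusted p = 0.0211). Ndufb2 (1.52) and Atp5e, the epsilon subunit (1.45), rose, and Cox4i2 (-3.43), Ndufs4 (-1.71) and Ndufb6 (-1.51) fell. Against IgG, CHD2 had 3 members lower and 0 higher, where 0.376% of all genes were called lower and 11.1% higher (11.5% in all). DESeq2 called 36 lower and 0 higher, against 7.63% and 16.5%. The 3 were Atp5md (-1.34, SE 0.32, adjusted p = 0.0309), Cox7b (-1.27, SE 0.31) and Ndufa4 (-1.13, SE 0.30). Ndufa4 stood at 57.6 and 59.4 CPM in CHD2, 128.8 and 127.5 in IgG and 156.7 and 105.2 in the input. Of the 83 members 81 had a negative fold change and 74 lay below both IgG libraries, where 33.5% of all genes did, and the median was -0.77 against 0.02 for all genes. These comparisons share libraries, so their values are not independent.

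**Figure D5:**
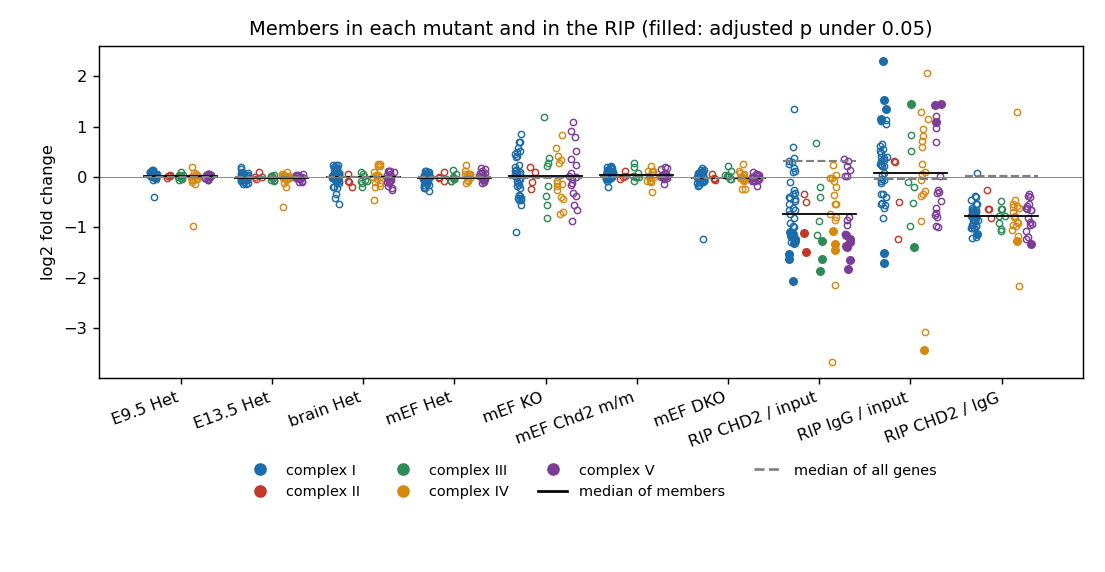
Log2 fold change of each member (y axis) in each mutant against its own WT and between RIP libraries (x axis), coloured by complex; filled points passed an adjusted p of 0.05, black lines are medians of the members and dashed lines medians of all genes. No point is filled in the mutants, the Chaserr-/- mEFs spread most among them, and the CHD2 columns are centred at -0.74 and -0.77.

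The RIP values changed with a length and GC correction and with the libraries used, and markers of other cell types were present. Members are short, with a median length of 659 bases against 2054 for all rows, and after the correction for length and GC content the median of CHD2 against the input was -0.19, with 3 members higher and 12 lower (1481 of 14906 genes called). Against IgG the corrected median was -0.32, with 3 lower (1344 of 14906 genes). Leaving out 1 library left 1 library in a group, so only medians of the members are given for these fits. The median of CHD2 against the input then lay between -1.08 and -0.75, and that of CHD2 against IgG between -1.12 and -0.65. For IgG against the input it lay between -0.08 and 0.21. Calls of members depended on which library was left out. The libraries are labelled Neuro2a, but some markers of other cell types were present. The 3 oligodendrocyte markers summed to 473.2 to 601.5 TPM in the input, 1325 to 1531 in CHD2 and 2217 to 2937 in IgG. Most of this was Mbp, with 515.0 and 403.6 TPM in the input. The 17 macrophage markers summed to 202.6 to 248.2, 554.6 to 624.7 and 965.4 to 1289, but 6 of them averaged under 1 TPM in the input, and 2 did in CHD2 and in IgG. The part of these markers in the members' values was not tested. Of other genes of the pathway, Cyc1 (-1.93), Cycs (-1.40) and Ndufab1 (-1.05) were called lower in CHD2 than in the input. So were 25 of 77 mitochondrial ribosomal protein genes, where 6.16% of all genes were called lower. For assembly factors (2 of 43) and the tricarboxylic acid cycle (1 of 17) the counts were near that share of all genes.

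Most members had a promoter peak of open chromatin in mEFs at the deposited threshold. All 84 were placed on mm9, and 54 of them (64.3%) had an ATAC-seq peak within 300 bases of a transcription start in all 12 libraries of Chaserr-/-, double mutant and matched WT mEFs, against 35.4% of 20041 genes. Counting only peaks with a −log10 q of at least 10, a limit chosen after the data were seen, 21 members had one in all 12 libraries, against 14.5% of genes. In 25 others some libraries had a peak. Ndufa4l2, Cox6a2, Cox7b2, Cox8b and Cox8c had none in any library, where 30.3% of all genes had none. All 5 are paralogues of more abundant members, but Ndufa4l2 averaged 19.49 TPM in the WT mEFs of the KO set. Of the other low-level paralogues, Cox7a1, at 1.49 to 1.94 TPM over the means of the WT mEF sets, had a peak in 11 libraries, and Cox4i2 in 2. The number of members with a peak was 78 or 79 in Chaserr-/-, where 63.0% to 66.7% of all genes had one, and 77 or 78 in its WT, with 63.0% to 64.0% of all genes. It was 66, 76 and 77 in the double mutant (46.7%, 62.6% and 64.3% of all genes) and 77, 54 and 78 in its WT (61.0%, 37.2% and 62.9%), where the libraries with 66 and 54 also had the fewest peaks in all, 28349 and 18661 against 58324 to 93597 in the rest. Atp5h (mm9 chr11:115277003-115281276) and Atp5d (mm9 chr10:79601377-79608563) had a peak in all 12 libraries, although the letters of the motifs occur in the promoter of Atp5h alone.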

How the data were processed

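RNA-seq libraries were quantified by the authors with RSEM (Bowtie2 alignment), and the deposited expected counts and TPM per gene were used. ATAC-seq peaks were called by the authors with MACS2 per library, and the deposited −log10 q-values of the peaks were used on mm9 coordinates; other columns (FPKM among the expression values; score, fold and p-value among the peaks) were not used. Versions of these tools are not given in the sources used here.

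The members, pathway lists, marker lists and tests were chosen with earlier results of these data known. Expected counts were rounded to whole numbers, filtered on low counts with filterByExpr over all rows, scaled by TMM and tested with edgeR 4.0.16 (quasi-likelihood, Benjamini-Hochberg adjustment over all genes tested, called under 0.05) in R 4.3.3, each mutant with its own WT libraries and the 6 RIP libraries in one fit. TPM served for levels, and CPM after TMM scaling stands beside fold changes. The scripts were tested on simulated counts, with 200 genes per comparison changed by 1 in log2 units. Of these genes, 0% were called in brain Chaserr+/-, in the RIP comparisons and in brain against E13.5. In mEFs against brain 15% were called, in Chaserr-/- mEFs 56.5%, and in the others simulated 71.5% to 89%. Of 24990 rows, 372 had an identifier that matched no gene name and were kept in the fits. Genes named in the text were 1 subunit per complex, paralogue groups, the members with the highest TPM, and in each comparison the called members with the largest changes (up to 3 each way) or, without calls, those with the smallest p (up to 2 each way). Alternatives were DESeq2 1.42.0, another scaling, no filter, a replicate block, a lowess correction (span 0.3) for length and GC content, and leaving out each library. Whether equal replicate numbers pair libraries was checked by correlating deviations from group means: they did in brain (0.437 to 0.747), where the third replicates also share a kit, and in no other set by the rule used. Promoter sequences came from RefSeq (GRCm38.p6). Peaks within 300 bases of an annotated start counted as promoter peaks. Figures were drawn with matplotlib 3.10.9. Depth ran from 7621335 to 33192002 counts per RNA library. Chromosome conformation and other data were not analysed here.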

Additional observations from a re-analysis of the deposited data

How the results depend on the processing

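No fold change of a named member turned its direction past the threshold under any alternative, but for IgG against the input the balance of calls turned with no filter on low counts, from 8 members higher and 4 lower to 8 higher and 14 lower. In E9.5, E13.5, brain, mEF Chaserr+/-, Chd2 m/m and double mutant comparisons, 0 members were called under every alternative run, the replicate block included. In Chaserr-/- mEFs, where 0 were called, 11 were called with no filter on low counts (1407 of 18671 genes) and 25 by DESeq2 (2639 of 13580). When 1 library was left out 0 to 27 were called, the last when 2827 of 13770 genes were. For the difference between Chaserr-/- and the double mutant, 10 were called by DESeq2 (1513 of 14273 genes). When 1 library was left out 0 to 11 were called there, the last when 1764 of 14479 genes were. CHD2 against the input (25 members) gave 38 by DESeq2, 15 after the length and GC correction, 32 with the replicate block and 0 to 44 with 1 library left out. IgG against the input (12) gave 22 with no filter, 29 by DESeq2, 27 with the replicate block, 27 after the correction and 0 to 24. CHD2 against IgG (3) gave 9 with no filter, 5 with RLE scaling, 36 by DESeq2, 24 with the replicate block and 0 to 59. The RIP block rests on 2 pairs that share only a number. Brain against E13.5 (58) gave 77 with TruSeq libraries alone, 56 with the replicate block and 53 to 70, E13.5 against E9.5 (58) gave 54 with the block and 52 to 58, and mEFs against brain (50) gave 29 with all 4 WT sets and 34 to 53. Promoter peaks in all libraries went from 54 members to 21 at a −log10 q of at least 10, an alternative added after the data were seen, and were 54 to 66 with 1 library left out. Causes were not tested beyond the smaller numbers of libraries or peaks that some alternatives use by construction. The numbers of Chaserr-/- libraries and their WT are not shared, so no paired fit exists there. Of 838 alternatives for 74 other results, fold changes of named members and medians of the members, 755 counted as unchanged. For a fold change this meant the same side of the threshold and either the same direction or a value within 1 SE. For a median, which has no threshold, it meant a shift within the pooled SD between libraries of the members' mean log2 CPM. Of the fold changes, 0 turned past the threshold.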
